A study of Homo sapiens with 2 samples.

Results

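Keratins are the intermediate filament proteins of epithelial cells, and 10 of them were followed here in Calu-3 cells with and without cyclic mechanical stretch. The members were taken by gene symbol, as every probe set that the platform annotation assigns to 4 keratins of simple (single-layered) epithelium, KRT7, KRT8, KRT18 and KRT19, and to 6 keratins of basal and squamous epithelium, KRT5, KRT6A, KRT13, KRT14, KRT15 and KRT17. Of the 10 genes, 8 had a probe set named for them, out of 19775 genes named on the array, with 12 probe sets of 54613 in all. KRT6A and KRT17 had none in the annotation used and were not analysed here.

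The stretched culture was Calu-3 cells driven for 18 h on collagen I-coated flexible plates between 0.7% and 20% stretch, as a sine wave of 2 s on and 2 s off. The non-stretched culture was Calu-3 cells labelled with the same 18 h and no stretch. Both were grown in medium with 10% serum to about 80% confluence per the labels' treatment protocol, whereas the design text calls the cells confluent. Calu-3 is an established human lung adenocarcinoma line used as a model of the airway surface and its glands, and the labels describe it both as bronchial and as pulmonary epithelium. Each condition was measured on 1 Affymetrix array, so no value below has a replicate, an SD between cultures or a test, and every difference compares these 2 arrays.

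A keratin filament is built from pairs in which an acidic type I keratin (here KRT13, KRT14, KRT15, KRT17, KRT18 and KRT19) joins a basic or neutral type II keratin (here KRT5, KRT6A, KRT7 and KRT8). KRT8 with KRT18 is the primary pair of simple epithelium, joined in ducts and airways by KRT7 and KRT19. KRT5 with KRT14 or KRT15 marks the basal layer that rests on the basement membrane, KRT6A and KRT17 are induced in injured and hyperproliferative epithelium, and KRT13 with KRT4 is laid down above the basal layer of non-keratinised stratified epithelium such as that of the oesophagus. In the airway, KRT5 and KRT14 are markers of basal stem cells and KRT13 of intermediate and squamous cells. By RefSeq's gene table (GRCh38.p14) the genes KRT5, KRT6A, KRT7, KRT8 and KRT18 lie on chromosome 12 and the other members on chromosome 17. Gene positions are left out, since the deposited table is tied to no build.

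The arrays had like medians, but 2 other references of scale pointed in opposite directions. On the log2 scale, stretched minus non-stretched, the 75th percentile differed by 0.11 and the 18 spike-in probe sets by a median of -0.11. The simple keratins below differed by a like amount, 0.09 to 0.22. The median intensities over non-control probe sets were 28.4 in the stretched and 28.7 in the non-stretched array, and these medians served as a floor below which a signal was not taken as a level. The 3′-to-5′ signal ratio of the GAPDH control probe sets, a sign of RNA integrity, was 0.862 in the stretched and 0.878 in the non-stretched array, and that of the ACTB control probe sets was 1.01 in the stretched and 1.04 in the non-stretched array. Of 13 columnar epithelial markers named on the array, all 13 exceeded the floor in both arrays, as did 12185 of all 19775 named genes. Of 26 markers of fibroblasts, leukocytes, endothelium and mesothelium named on the array, 14 exceeded the floor in at least 1 array. Of all 19775 named genes, 13453 did so. The values of these markers are given at the end.

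Of the 7 keratins above the floor in at least 1 array, 1 was at least 2-fold higher in the stretched array (KRT13) and 1 at least 2-fold lower (KRT14). Over all 13453 measured genes, 7.78% were 2-fold or more higher and 7.49% were 2-fold or more lower. RNA from a whole culture cannot tell fewer cells that make a keratin from less of its RNA in each cell. No simple keratin differed 2-fold. The median log2 difference, stretched minus non-stretched, was 0.17 for the 4 simple keratins and -0.50 for the 3 measured basal and squamous keratins, against 0.005 for all measured genes. The gap between these medians, basal and squamous minus simple, was -0.67, but the 3 members behind the lower value ran from -1.55 to at least 2.75 and did not share a direction. The range of the simple keratins was 0.09 to 0.22.

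**Figure D1:**
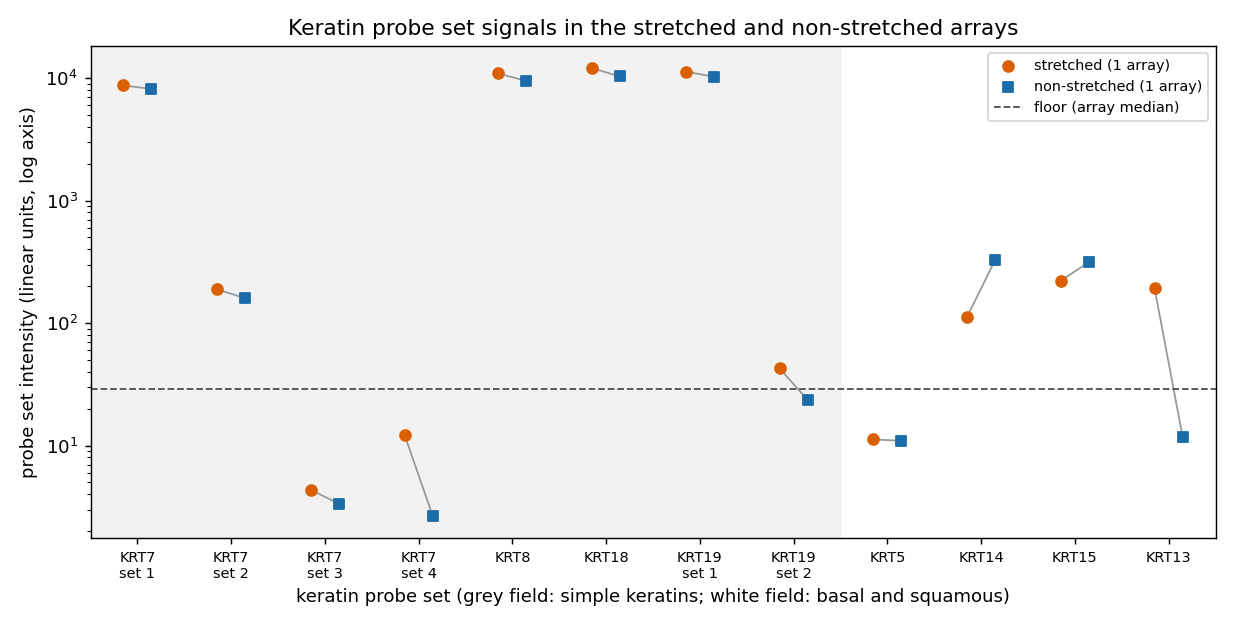
Intensity (linear units on a log axis) of each of the 12 keratin probe sets, with the stretched array as circles and the non-stretched array as squares; the dashed line is the floor and there is 1 array per condition. The brightest set of each simple keratin lies between 8170 and 12028 in both arrays, KRT5 lies under the floor in both, KRT14 and KRT15 are lower in the stretched array, and KRT13 is above the floor in the stretched array alone.

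The simple keratins were near the top of the signal range in both cultures and differed little. KRT18, the type I partner of KRT8, had an intensity of 12028 in the stretched array and 10324 in the non-stretched array, a log2 difference of 0.22 (1.17-fold). KRT8, its type II partner, had 10913 in the stretched and 9458 in the non-stretched array, a difference of 0.21 (1.15-fold). The differences of this pair were 0.01 apart on the log2 scale. Both genes were read by a single probe set ending in _x_at, a design that can bind related transcripts, and both have processed pseudogenes.

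KRT19, the smallest keratin and a type I protein without a tail domain, had 11279 in the stretched and 10289 in the non-stretched array in its brightest probe set, a log2 difference of 0.13 (1.10-fold). Its second probe set was dim, with 42.6 in the stretched array and 23.6, under the floor, in the non-stretched array, which makes it at least 1.48-fold higher. KRT7, the type II keratin of glandular and ductal epithelium, had 8718 in the stretched and 8170 in the non-stretched array, a log2 difference of 0.09 (1.07-fold). A second KRT7 probe set had 189 and 160 in the stretched and non-stretched arrays, a difference of 0.24. The remaining KRT7 sets were under the floor in both arrays, with 12.2 and 4.34 in the stretched against 2.66 and 3.35 in the non-stretched array, and give no fold.

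The 4 simple keratins thus lay on the same side of 0 in their brightest probe sets, although KRT7 moved to -0.01 when the arrays were centred on their 75th percentile. The SD between probe sets of one gene was 0.23 in the log2 difference among genes with more than 1 probe set above the 75th percentile. Differences of 0.09 to 0.22 were smaller than this SD. That percentile was 249 in the stretched and 231 in the non-stretched array, far below the simple keratins. The SD between probe sets at their own brightness was not estimated. In the stretched array 28 of the 54613 probe sets were brighter than that of KRT18 and 211 brighter than that of KRT7, against 110 for KRT18 and 249 for KRT7 in the non-stretched array. These positions describe where the probe sets lie on the signal range, not how much of each transcript there was. Other probe sets as bright as the simple keratins hardly differed either: of 162, 0% reached 2-fold, the median log2 difference was 0.03 and the central 90% lay between -0.11 and 0.22, whereas 15.3% of all measured genes differed 2-fold in one direction or the other. KRT18 and KRT8 lay at or just under the upper end of that range and KRT19 and KRT7 within it. A small difference was therefore usual at this brightness. Whether the signal is compressed there was not tested, so these values do not show that the simple keratins were unchanged.

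The basal keratins were dim or under the floor, and the 2 that were measured were lower in the stretched array. KRT14, the type I keratin of the basal layer, had an intensity of 112 in the stretched and 328 in the non-stretched array, a log2 difference of -1.55, or 2.92-fold lower. KRT15, a type I keratin of basal cells that also pairs with KRT5, had 222 in the stretched and 315 in the non-stretched array, a difference of -0.50 (1.42-fold lower), short of the 2-fold threshold. The difference of KRT14 was 1.04 further below 0 on the log2 scale than that of KRT15. Each was read by 1 probe set with neither the _x_at nor the _s_at ending.

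KRT5, the type II partner of both, had 11.2 in the stretched and 10.9 in the non-stretched array, under the floor in both, so no fold can be given and its transcript was not detectable above the floor at this signal. Among 3289 other genes with a mean signal between 100 and 400 and above the floor in both arrays, 11.8% were at least 2-fold lower, 5.05% differed as far as KRT14 or further in the same direction, and 25.2% as far as KRT15 or further. Probe sets of one gene in that signal range scattered with an SD of 0.35 in their log2 difference.

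KRT13, the type I keratin of suprabasal squamous cells, went the other way. Its intensity was 192 in the stretched array and 11.7, under the floor, in the non-stretched array, at least 6.71-fold higher. With no floor the log2 difference was 4.04, but that size rests on a signal not distinguished from background. KRT13 was 1 of 512 genes above the floor in the stretched array alone, and 7 of these, itself included, had a stretched signal at least as high as its own. It was read by 1 probe set ending in _s_at, which can bind more than one transcript, and no second probe set was there to compare. KRT4, the type II keratin that pairs with KRT13, was under the floor in both arrays in both its probe sets, the brighter of which had 13.3 in the stretched and 5.43 in the non-stretched array.

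**Figure D2:**
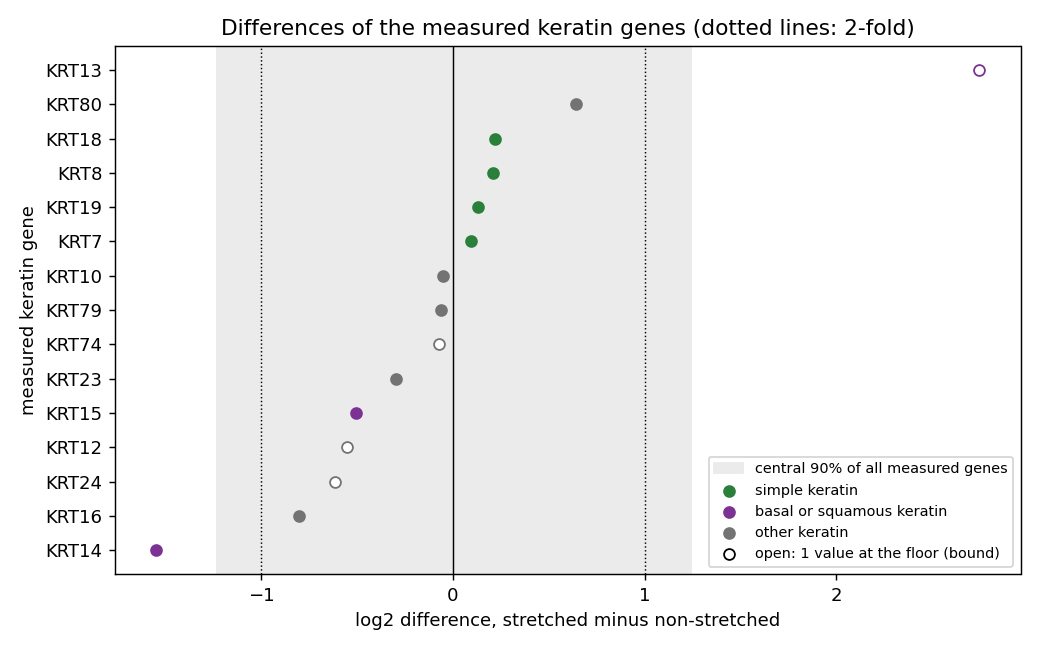
Log2 difference, stretched minus non-stretched, of each keratin above the floor in at least 1 array, by its brightest probe set; open points are bounds with 1 value at the floor, and the grey field holds the central 90% of all measured genes (-1.23 to 1.24). KRT13 (at least 2.75) and KRT14 (-1.55) lie outside that field and the simple keratins cluster between 0.09 and 0.22, a position in which KRT7 passes to -0.01 if the arrays are centred on their 75th percentile. The field covers genes of all brightness. Among genes with a mean signal between 100 and 400 the central 90% was wider, -1.56 to 1.63, with KRT14 at its lower edge.

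Beyond the members, 36 other keratin genes were named on the array and 8 of them were measured. None of the 8 reached 2-fold by the values above the floor, against 15.3% of all measured genes. Their median log2 difference was -0.19, with KRT12, KRT24 and KRT74 at their bounds. KRT16, the type I keratin induced with KRT6A in wounded and hyperproliferative epithelium, had 102 in the stretched and 177 in the non-stretched array, 1.74-fold lower. KRT80, a type II keratin found in many epithelia, was the measured one furthest above 0, with 773 in the stretched and 495 in the non-stretched array, 1.56-fold higher. KRT24 and the corneal keratin KRT12 passed the floor only in the non-stretched array, at least 1.53-fold and 1.47-fold lower.

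The brightest keratins outside the member list, KRT10 and KRT23, differed by at most 1.23-fold in their brightest probe sets. KRT10, a type I keratin best known from the upper epidermis, had 5665 in the stretched and 5880 in the non-stretched array, and its 3 probe sets ran from -0.10 to -0.03 on the log2 scale. KRT23, a further type I keratin, had 7031 in the stretched and 8641 in the non-stretched array, a difference of -0.30 (1.23-fold lower). Its direction was opposite to that of the 4 simple keratins in their brightest probe sets. KRT20, the type I keratin of intestinal and urothelial surface cells, was under the floor in both arrays.

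**Figure D3:**
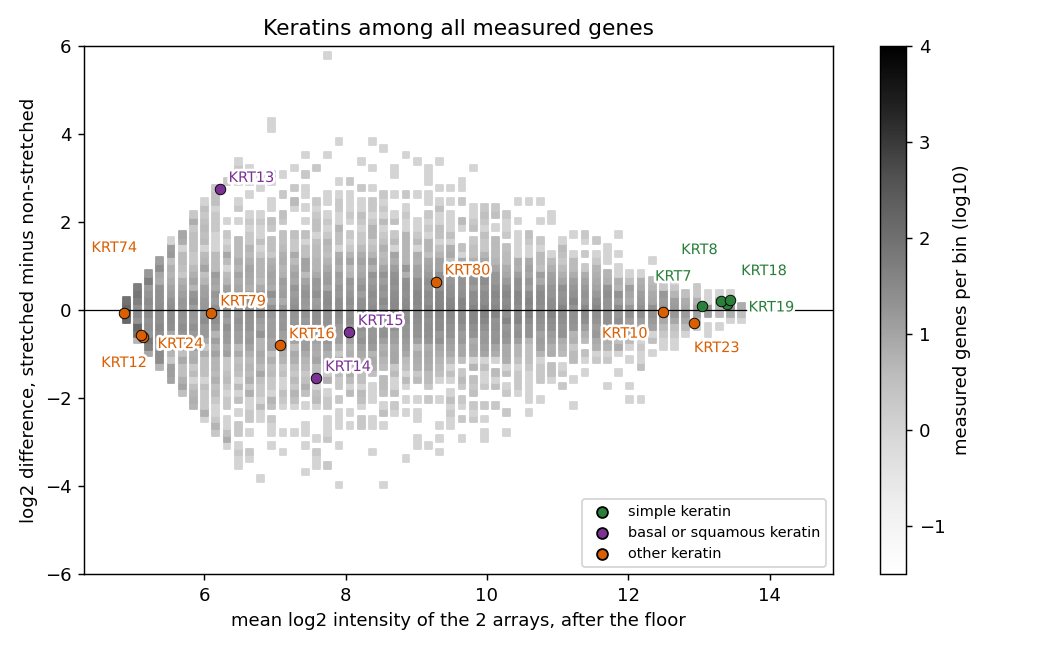
Log2 difference, stretched minus non-stretched, against the mean log2 intensity of both arrays after the floor, with all 13453 measured genes binned in grey and the measured keratins coloured by class. The simple keratins sit at the bright end, where genes hardly spread, and KRT13, KRT14 and KRT15 sit in the dim and middle part, where the spread is wide; KRT13 lies on the slanted edge that the floor draws.

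Counted by partner type, 5 type II keratins were measured (KRT7, KRT8, KRT74, KRT79 and KRT80), with a median log2 difference of 0.09. The 10 measured type I keratins (KRT10, KRT12, KRT13, KRT14, KRT15, KRT16, KRT18, KRT19, KRT23 and KRT24) had a median of -0.40, with 3 above and 7 below 0. These medians include bounds with 1 value at the floor: KRT74 of type II, and KRT12, KRT13 and KRT24 of type I. Above the floor in both arrays were 4 type II and 7 type I keratins. This grouping was made after the values were seen and is a description. Of 19 hair and root sheath keratins named on the array, 1 was measured, KRT74, and it barely passed the floor in the non-stretched array.

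Desmosomes and hemidesmosomes anchor keratin filaments at the cell surface. Of 13 measured desmosome and hemidesmosome genes, none differed 2-fold by its brightest probe set, against 15.3% of all measured genes. Of these, 7 were above and 6 below 0, and the median was 0.05. DST was 1.11-fold lower by its brightest set, but its 7 measured probe sets ran from -0.19 to 1.20 on the log2 scale. PKP3, a desmosomal plaque protein, was 1.80-fold higher (1399 in the stretched and 779 in the non-stretched array), with its second probe set at 1.14 on the log2 scale. PPL, periplakin, was 1.56-fold lower, PKP2 1.35-fold higher and ITGA6, the integrin of the hemidesmosome, 1.35-fold higher with a second probe set at 1.20. Among desmosomal cadherins best known from stratified epithelium, DSC3 had 241 in the stretched and 308 in the non-stretched array, 1.28-fold lower with 3 probe sets from -0.80 to -0.15, whereas DSC1, DSG1, DSG3 and DSG4 were under the floor in both arrays.

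Of 12 measured genes whose products bind keratins or act in their turnover, 2 were at least 2-fold higher, against 7.78% of all measured genes. None was 2-fold lower by its brightest probe set, against 7.49%, and the median was -0.05. With the arrays centred on their 75th percentile 1 gene remained 2-fold higher, TCHP. SFN, the epithelial 14-3-3 protein that binds KRT17, had 7363 in the stretched and 3443 in the non-stretched array, 2.14-fold higher, and its 3 probe sets ran from 1.10 to 1.61 on the log2 scale. TCHP, trichoplein, which binds KRT8 and KRT18 filaments, was 2.51-fold higher, with both probe sets at 1.33 or above. DNAJB6, a chaperone that binds KRT18, was 1.79-fold higher, and the small heat shock protein HSPB1 was 1.62-fold lower. PNN was 1.28-fold lower by its brightest set, but its 5 measured probe sets ran from -0.35 to 1.56 on the log2 scale.

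Intermediate filament genes of other classes include the nuclear lamins. Among the 10 measured, 4 were 2-fold or more higher, against 7.78% of all measured genes. None was lower by that much, against 7.49%, and the median was 0.29. With the arrays centred on their 75th percentile, with quantile normalization or with a loess trend removed, 2 remained, INA and LMNA, and with _x_at and _s_at probe sets left out the 2 were LMNA and LMNB1. The nuclear lamins LMNA, LMNB1 and LMNB2 were 2.33-fold, 2.03-fold and 2.14-fold higher, with LMNA at 3139 in the stretched and 1348 in the non-stretched array and its 5 probe sets at log2 differences from 0.62 to 1.73. INA, a neuronal intermediate filament, was 2.50-fold higher (127 in the stretched and 50.7 in the non-stretched array). VIM, the mesenchymal filament vimentin, named after its values were seen, had 8818 in the stretched and 8389 in the non-stretched array, a log2 difference of 0.07.

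Transcription factors tied to keratin expression were mixed, with a median of -0.01 by their brightest probe sets. Of 13 measured, none was at least 2-fold higher, against 7.78% of all measured genes, and 1 at least 2-fold lower, against 7.49%. The exception was ELF3, an epithelial ETS factor, with 810 in the stretched and 2934 in the non-stretched array, 3.62-fold lower; its 3 probe sets ran from -1.86 to -1.59. GRHL1, a grainyhead factor of epithelial differentiation, was 1.86-fold higher, and OVOL2 and OVOL1, zinc-finger factors of epithelial identity, were 1.61-fold and 1.56-fold higher. A second OVOL2 probe set was at 1.01 on the log2 scale. With no floor 1 factor was 2-fold higher, ZNF750. Its signals, 3.83 in the stretched and 1.0 in the non-stretched array, lie under the floor and set no level. With the arrays centred on the spike-ins the 1 factor was GRHL1. With _x_at and _s_at probe sets left out it was OVOL2, by its second probe set. SOX2, a factor of airway basal cells, was near the floor with 45.5 in the stretched and 45.6 in the non-stretched array. TP63, the master factor of basal cells, was not analysed here.

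Of 9 other basal cell markers measured, none differed 2-fold by its brightest probe set, against 15.3% of all measured genes. Of these, 5 lay above and 4 below 0, and the median was 0.09. ITGA6 was 1.35-fold higher, with a second probe set at 1.20 on the log2 scale. DST was 1.11-fold lower by its brightest set, but its 7 measured probe sets ran from -0.19 to 1.20. CDH3, P-cadherin, was 1.72-fold lower, S100A2 1.43-fold higher and LAMB3, a laminin-332 chain, 1.22-fold higher. NGFR, a surface marker of airway basal cells, was under the floor in both arrays, as were BCAM, PDPN and DSG3. Summed over the 13 named markers the intensity was 12430 in the stretched and 11795 in the non-stretched array. ITGA6 was the largest part, with 5294 in the stretched and 3927 in the non-stretched array. CDH3 went the other way, with 1774 in the stretched and 3045 in the non-stretched array, so the sum does not describe the list as a whole.

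Of 13 columnar epithelial markers measured, 4 differed 2-fold, all of them lower, whereas 7.49% of all measured genes were 2-fold lower. By their brightest probe sets 12 of the 13 lay below 0, with a median of -0.67, against 6662 of all 13453 measured genes below 0. These counts depend on the probe set taken. A second ESRP1 set was at -1.03, and AGR2, the 1 marker above 0, had a second set at -0.22. With the arrays centred on the spike-ins 3 remained 2-fold lower, without SPINT1. With _x_at and _s_at probe sets left out 9 were measured and 3 were 2-fold lower, ELF3, CFTR and SPINT1, without MUC1. Beside ELF3, MUC1, a membrane mucin, was 2.73-fold lower, CFTR, the chloride channel, 2.69-fold lower and SPINT1, a protease inhibitor, 2.05-fold lower. Summed over the list the intensity was 31383 in the stretched and 44421 in the non-stretched array. The part of this in the keratin values was not tested.

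**Figure D4:**
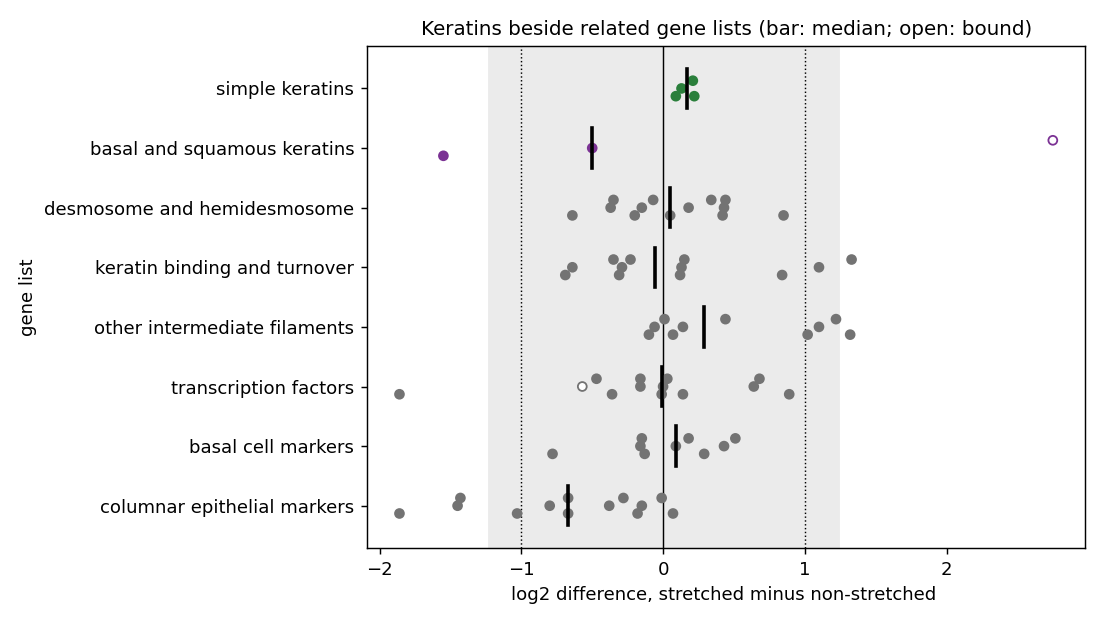
Log2 difference, stretched minus non-stretched, of each measured gene (1 point) in the keratin classes and 6 related lists, with bars at list medians, open points for bounds and the grey field for the central 90% of all measured genes. Simple keratins lie close together at a median of 0.17, basal and squamous keratins are spread from -1.55 to at least 2.75, and columnar markers have a median of -0.67.

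Of 8 fibroblast markers 3 were measured. By its brightest set COL1A1 was 1.20-fold lower, while the other measured sets of this gene were 5.74-fold and at least 5.26-fold lower. DCN was 1.15-fold lower and COL1A2 at the floor, and COL3A1, PDGFRA, PDGFRB, LUM and THY1 were under it in both arrays. The list's summed intensity was 209 in the stretched and 264 in the non-stretched array. Of 6 endothelial markers 1 was measured, PECAM1, which was 1.12-fold lower, with CDH5, VWF, KDR, TEK and CLDN5 under the floor in both arrays, and the sums were 97.1 in the stretched and 116 in the non-stretched array. Of 7 leukocyte markers 6 were measured, all but PTPRC, and none differed 2-fold, against 15.3% of all measured genes. CD14 was 1.43-fold, ITGB2 1.35-fold and CSF1R at least 1.26-fold lower, and CD79A was at least 1.21-fold higher. Their sums were 1657 in the stretched and 1451 in the non-stretched array, most of it from LYZ, lysozyme, which airway gland cells also make. Of 5 mesothelial markers 4 were measured, and WT1 was under the floor in both arrays. CALB2 was 11.8-fold higher and MSLN 2.00-fold lower, UPK3B 1.37-fold higher and LRRN4 at least 1.34-fold lower. The sums were 1769 in the stretched and 340 in the non-stretched array, of which CALB2 alone gave 1597 and 135. The part of these markers in the keratin values was not tested.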

How the data were processed

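The authors deposited linear intensities, 1 for each probe set on each array. Per the labels' protocols, biotin-labelled cRNA was made from 6 µg of total RNA from each culture by the Affymetrix standard procedure. How signals were summarised, scaled and called is not stated in the labels. Gene names came from the platform annotation, with symbols updated by gene ID (RefSeq, GRCh38.p14): 41091 had 1 gene (54 of them with an older symbol kept), 1801 had several genes and were not named, and 11721 were unnamed here.

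Intensities were converted to log2, and values under the 50th percentile of their array were set to it (the floor). Each gene took its probe set of highest mean log2 signal and counted as measured if above the floor in at least 1 array. A fold with 1 value at the floor is a bound, written "at least". Genes were counted at a 2-fold difference. With 1 array per group no test was made. Precision was estimated from the 2 brightest probe sets of 5818 genes (SD of a log2 difference 0.36; 0.23 in 2595 genes above the 75th percentile), which leaves out variation between cultures, and the number of arrays limits it.

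All members were named with every probe set; of other keratins, the 4 with the largest difference and the 3 brightest; of each of the other lists, up to 4 with the largest difference. Other genes named, as present, near or under the floor, as partners or for VIM, LYZ, DSC3, DST and PNN, were chosen after their values were seen. Members and lists were chosen with earlier results of these data known. The computation was tested on simulated data. Analyses used Python 3.11.15, pandas 2.3.3 and statsmodels 0.14.6.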

Additional observations from a re-analysis of the deposited data

How the results depend on the processing

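Alternatives were a floor at the 75th percentile, no floor, centring on the 75th percentile or on 18 spike-in probe sets, quantile normalization, removal of a loess trend, averaged probe sets, and _x_at and _s_at probe sets left out. With the floor at the 75th percentile 0 members were 2-fold higher and 0 were 2-fold lower, because KRT13 is then under the floor in both arrays and KRT14 in the stretched array, which gives KRT14 a bound of -0.40. Without _x_at and _s_at probe sets 0 members were 2-fold higher, since KRT13 has no other probe set, and 3 members were left: the median of KRT14 and KRT15 was then -1.03, and its gap to KRT19, the simple keratin left, -1.16. With no floor KRT13 was at 4.04, and with KRT5 then counted the basal and squamous median was -0.23 and its gap to the simple keratins -0.40. The other values of the class medians and member counts kept their direction and their side of 2-fold. Across the alternatives that measured them, KRT15 ran from -0.62 to -0.39 (with a bound of -0.34 at the higher floor), KRT18 from 0.11 to 0.33, KRT8 from 0.10 to 0.32, KRT19 from 0.02 to 0.35 and KRT7 from -0.01 to 0.21. The median of all measured genes moved to -0.103 with centring on the 75th percentile and to 0.119 with centring on the spike-ins, and the simple keratins' median to 0.06 and 0.28 with them. These centrings also moved the background shares, to 6.34% higher and 9.05% lower, and to 9.79% higher and 6.17% lower. Of the related lists, tried under the same alternatives after seeing the data, the intermediate filament genes of other classes 2-fold higher numbered 2 with centring on the 75th percentile, quantile normalization, the loess trend removed or _x_at and _s_at probe sets left out, and the keratin binding and turnover genes 1 with the first of these. The columnar epithelial markers 2-fold lower numbered 3 with centring on the spike-ins or with _x_at and _s_at probe sets left out. No paired analysis was possible because each group has 1 array. Signals under the floor set no level, which limits KRT5, KRT4 and the non-stretched value of KRT13.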

Other observations

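Probe sets of keratin-related loci gave 3 more signals above the floor. KRT8P12, a processed pseudogene of KRT8, had 937 in the stretched and 663 in the non-stretched array in one probe set, a log2 difference of 0.50, and 115 and 111 in the other, a difference of 0.05. KRT8P12 and KRT8 have related sequences, and which transcript those probes bound was not tested. KRT10-AS1, the antisense neighbour of KRT10, had 3104 in the stretched and 3105 in the non-stretched array. KRT19P2 and KRT17P5 were under the floor in both arrays.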
